A study of Mus musculus with 19 samples.

Results

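Cd3e, Cd3g, Cd4, Cd8a, Il2rb, Ncr1, Nkg7, Gzmb and Prf1 were followed across lean and obese hosts, and across tumor age, in RNA of sorted mouse mammary cancer cells. These genes were chosen by name, as genes of T cells and natural killer (NK) cells. They are 9 of the 39017 genes in the count table, and each symbol was matched to 1 Ensembl identifier. T cells recognise antigen through a receptor whose signal is carried by the CD3 chains, with CD4 or CD8 as co-receptor. NK cells and cytotoxic T cells kill by releasing granules in which perforin opens a path for granzymes into the target cell. Both cell types respond to interleukin-2 and interleukin-15 through a receptor chain encoded by Il2rb. In tumors such cells lie among the cancer cells, and here the cells collected were those positive for mCherry, the label of the cancer cells.

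The cells were E0771, a mammary carcinoma line of the C57BL/6 mouse, carrying the red fluorescent protein mCherry and placed in a mammary fat pad (50000 cells) of c57bl6 hosts labelled lean (chow) or obese (HFD). Tumors were taken at day 14 (midpoint) or day 21 (endpoint), dissociated, and sorted for mCherry before RNA extraction. The libraries used were 4 from lean hosts at day 14, 5 from obese hosts at day 14, 4 from lean hosts at day 21 and 5 from obese hosts at day 21, each labelled as a separate tumor. No host carried a named gene deletion, all tumors came from the same implanted line, and the labels give neither the age nor the sex of the hosts.

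The 18 libraries held 44174080 to 56996252 counts each. A further lean day 21 library, replicate 4, held 11889188 counts that stop on chromosome 5, so its 0 counts for all 9 genes are not measurements and it was left out. Mitochondrial genes took 5.79% to 12.3% of counts at day 14 and 17.1% to 44.7% at day 21, with the highest share in lean day 21 replicate 1. Even numbers made up 59.4% to 67.3% of gene counts between 1 and 50, so an error computed as if each count were an independent read is too small for low counts. Among the mammary epithelial markers, Krt8 averaged 31.1 CPM (counts scaled to a common library size, adjusted by the TMM method), whereas Krt18, Krt14, Krt5, Epcam and Cdh1 averaged 0.11 CPM or less, so most of these markers of the labelled cell type were absent or nearly so.

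All 9 genes were at low levels. Over the 18 libraries the mean level per kilobase of exon ran from 0.0314 CPM per kb for Ncr1, a receptor found mainly on NK cells, through 0.0953 for Cd8a, 0.172 for Cd3e, 0.341 for Prf1, 0.373 for Cd3g, 0.415 for Nkg7 and 0.466 for Cd4, to 0.84 for Il2rb and 0.885 CPM per kb for Gzmb. Between 1.15% (Ncr1) and 28.9% (Gzmb) of all tested genes lay lower on the same scale. Neighbours in the order of levels, taken within each of the 4 groups, overlapped in mean ± SD in 31 of 32 cases. The exception was Cd8a above Ncr1 in lean hosts at day 21. In bulk RNA such as this, fewer cells of a type and less RNA per cell cannot be told apart.

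**Figure D1:**
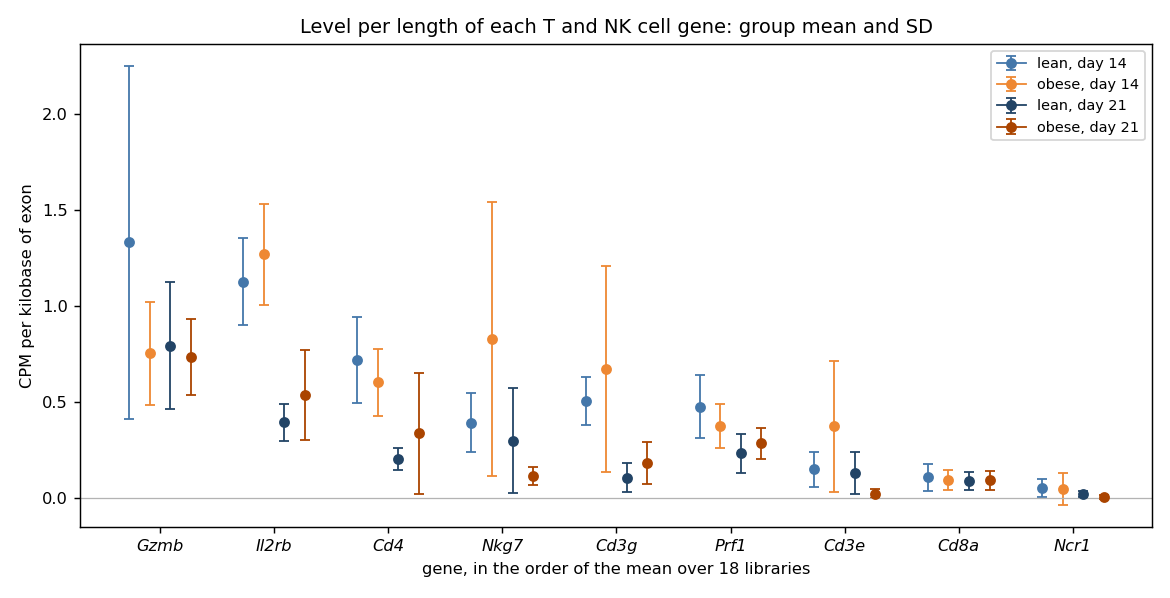
Mean level of each gene in CPM per kilobase of exon (points, vertical axis) with the SD over libraries (bars) in lean and obese hosts at day 14 and day 21, for 4 to 5 libraries a group. Gzmb and Il2rb are highest and Ncr1 lowest over the 18 libraries, and the SD ranges of most neighbours overlap.

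Before the values, 5 promoters are shown to let the start regions of 2 chains of CD3 be read beside those of 3 granule genes. The windows are RefSeq sequences of GRCm38.p6, 250 bases before to 50 after the annotated start, 5′ to 3′ on the gene's strand. Capitals mark matches, on either strand, to the core letters of the RUNX, ETS and GATA factor families and of the TATA box, which are spelled out after the sequences. No matches overlap each other. Cd3e lies on the minus strand at chr9:45009562-45009861 and Cd3g on the minus strand at chr9:44980382-44980681. Nkg7 lies on the plus strand at chr7:43436888-43437187, Gzmb on the minus strand at chr14:56262285-56262584 and Prf1 on the plus strand at chr10:61297586-61297885.
Cd3e: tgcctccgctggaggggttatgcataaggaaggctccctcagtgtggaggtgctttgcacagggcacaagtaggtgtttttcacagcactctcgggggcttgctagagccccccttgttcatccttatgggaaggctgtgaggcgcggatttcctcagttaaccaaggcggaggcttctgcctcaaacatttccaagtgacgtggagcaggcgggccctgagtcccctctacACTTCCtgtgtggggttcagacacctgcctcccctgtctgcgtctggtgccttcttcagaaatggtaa
Cd3g: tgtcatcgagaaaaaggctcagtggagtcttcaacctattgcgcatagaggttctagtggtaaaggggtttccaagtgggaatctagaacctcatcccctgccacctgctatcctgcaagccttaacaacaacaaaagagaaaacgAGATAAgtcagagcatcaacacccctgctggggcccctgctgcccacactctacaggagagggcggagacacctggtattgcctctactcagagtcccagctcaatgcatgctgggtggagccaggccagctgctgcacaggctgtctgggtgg
Nkg7: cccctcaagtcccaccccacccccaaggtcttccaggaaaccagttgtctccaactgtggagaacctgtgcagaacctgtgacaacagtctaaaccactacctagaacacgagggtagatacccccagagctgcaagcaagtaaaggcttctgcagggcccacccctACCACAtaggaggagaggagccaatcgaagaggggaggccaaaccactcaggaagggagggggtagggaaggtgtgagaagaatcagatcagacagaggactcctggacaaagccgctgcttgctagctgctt
Gzmb: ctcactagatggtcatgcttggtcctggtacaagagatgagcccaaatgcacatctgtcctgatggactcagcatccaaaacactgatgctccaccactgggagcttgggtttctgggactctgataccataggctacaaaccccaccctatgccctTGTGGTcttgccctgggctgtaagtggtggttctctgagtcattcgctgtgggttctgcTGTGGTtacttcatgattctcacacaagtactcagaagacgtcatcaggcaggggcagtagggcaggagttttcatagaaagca
Prf1: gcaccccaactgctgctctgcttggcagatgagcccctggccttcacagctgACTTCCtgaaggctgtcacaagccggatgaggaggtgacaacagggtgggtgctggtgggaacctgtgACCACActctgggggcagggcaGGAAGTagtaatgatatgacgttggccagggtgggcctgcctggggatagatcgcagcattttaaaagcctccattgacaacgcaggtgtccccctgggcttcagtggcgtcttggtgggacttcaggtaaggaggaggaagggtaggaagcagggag

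The RUNX core, searched as TGTGGT, was present once in the Nkg7 and Prf1 windows and 2 times in the Gzmb window. It was also present 2 times in the window of each of the 2 annotated starts of Ncr1, and in none of the Cd3e, Cd3g and Cd8a windows. By comparison, 16.8% of 32851 mouse promoter windows of the same length hold it. The ETS core, searched as GGAAGT and held by 23.8% of all windows, was found once for Cd3e and 2 times for Prf1. The GATA core, searched as AGATAA and held by 11.2% of all windows, was found once for Cd3g. The TATA box core, searched as TATAAA and held by 13.6% of all windows, was found in none of these genes. Promoter windows were at hand for 7 of the 9 genes, leaving Cd4 and Il2rb without one. A match is a string of letters, not a site shown to be bound.

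The chains of the T cell receptor complex come first. Cd3e and Cd3g lie on the minus strand of chromosome 9 of mm10 (44998743 to 45009590 and 44969572 to 44980431) and encode the epsilon and gamma chains of CD3. Cd3g was lower at day 21 than at day 14 in both kinds of host, and Cd3e was lower at day 21 in obese hosts. No other gene of the table overlaps the interval of any of the 9 genes, so their counts are not shared with an overlapping gene.

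Cd3g read, in replicate order, 0.437, 0.463, 0.735 and 0.529 CPM in lean hosts at day 14, and 0.516, 0.278, 1.71, 0.402 and 0.686 CPM in obese hosts at day 14. At day 21 it read 0.063, 0.0751, 0.0807 and 0.234 CPM in lean hosts (replicates 1, 2, 3 and 5) and 0.258, 0.351, 0.152, 0.18 and 0.0398 CPM in obese hosts. In lean hosts every day 21 library lay below every day 14 library, whereas in obese hosts the ranges met, since obese day 21 replicate 2 lay above obese day 14 replicate 2. The log2 fold change of day 21 against day 14 was -2.20 ± 0.62 (SE) in lean hosts (edgeR adjusted p = 0.0119) and -1.84 ± 0.52 in obese hosts (edgeR adjusted p = 0.0035). Raw counts behind these values were 26 to 48 in lean hosts at day 14 and 2 to 12 at day 21, so the late levels rest on few reads. Cd3g counts were even in 17 of the 18 libraries.

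Cd3e showed its widest spread in obese hosts at day 14, where the 5 libraries read 0.0645, 0.417, 1.37, 0.475 and 0.361 CPM. Lean hosts at day 14 read 0.168, 0.231, 0.383 and 0.0756 CPM. At day 21 lean hosts read 0.315, 0.319, 0 and 0.117 CPM, and obese hosts read 0, 0.0369, 0, 0.045 and 0.0795 CPM, which are counts of 0, 2, 0, 2 and 4. Of the 5 obese day 21 libraries, 4 were at or under 3 counts, the number that a count of 0 still allows if reads are independent (0.0552 to 0.0675 CPM in these 5 libraries, for counting error only). Cd3e counts were even in 12 of the 15 libraries that held any, so this limit is too small. The fitted log2 fold change of day 21 against day 14 was -3.97 ± 0.91 in obese hosts (edgeR adjusted p = 0.000666) and -0.24 ± 0.86 in lean hosts (edgeR adjusted p = 0.851). Obese day 14 replicate 1, at 0.0645 CPM, lay below the highest obese day 21 library, so these groups overlapped.

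**Figure D2:**
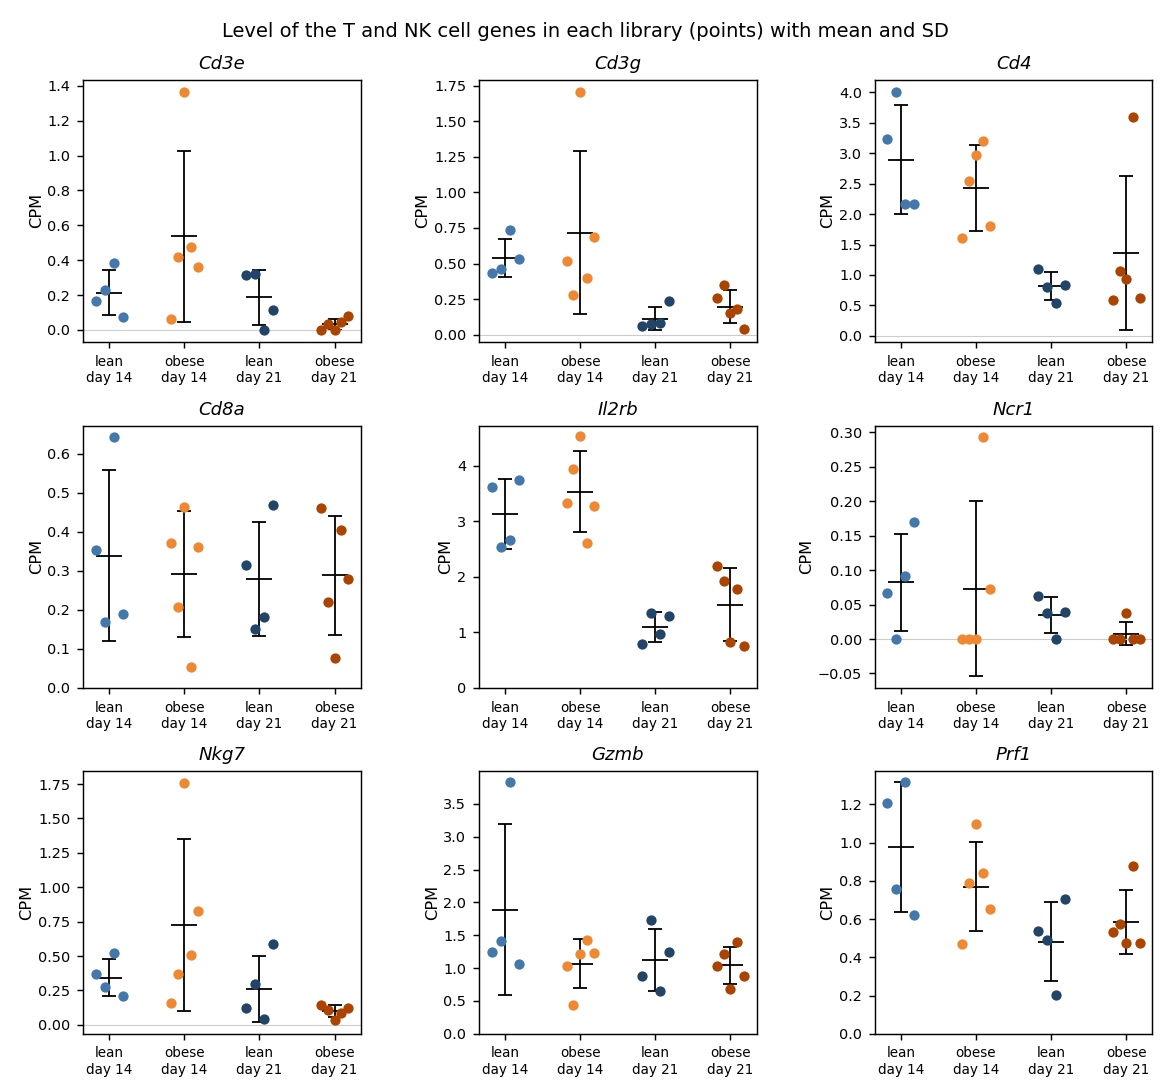
Level of each gene in CPM (vertical axis, linear, with its own range in each panel) in every library (points), with the group mean and SD (horizontal line and bars). Il2rb in both kinds of host and Cd3g in lean hosts sit lower at day 21 than at day 14, Cd8a does not separate the days, and single libraries stand far above their group for Gzmb (3.83 CPM in lean day 14 replicate 3) and Cd4 (3.6 CPM in obese day 21 replicate 4).

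The other chains and signaling proteins of T cells gave a fuller picture of the same complex. Of 24 such genes in the list, 22 passed the filter on low counts. Between day 14 and day 21, 3 of the 22 fell and 1 rose in lean hosts, where 9.5% of all tested genes fell and 21.4% rose. In obese hosts 12 fell and 2 rose, where 36.1% of all tested genes fell and 37.8% rose, and 73.9% changed in either direction. There the list's share that fell was above that of all genes and its share that rose was below it. Its share changed in either direction was below that of all genes. The list was not tested as a set. The list's median log2 fold change was -0.70 in lean hosts (all tested genes 0.04) and -1.32 in obese hosts (all tested genes below 0.01 in size). Cd3d, the delta chain of CD3, fell by 1.83 ± 0.57 on the log2 scale in lean hosts (edgeR adjusted p = 0.0204) and fell by 2.35 ± 0.50 in obese hosts (edgeR adjusted p = 0.000338).

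Lck, the kinase that phosphorylates CD3, was present at 2.65 CPM in lean and 4.54 CPM in obese hosts at day 14, and at 1.19 and 1.84 CPM at day 21. It fell with time in both (log2 fold changes -1.15 and -1.30). At day 14, 2 of the 22 genes were higher in obese than in lean hosts, Lck (log2 fold change 0.77 ± 0.29, edgeR adjusted p = 0.0491) and Foxp3, and 1 was lower, Lcp2 (-1.50 ± 0.36, edgeR adjusted p = 0.0305). Over all tested genes 16.7% were higher and 12.8% lower, so both shares of the list were below those of all genes. Lat, the adaptor below the receptor, fell by 2.20 ± 0.45 in obese hosts (edgeR adjusted p = 0.000219). Lcp2, an adaptor that myeloid cells also use, went the other way with time in obese hosts and rose by 1.10 ± 0.35 (edgeR adjusted p = 0.00784). Cd28, the co-stimulatory receptor, rose from 0.345 to 1.46 CPM in lean hosts (log2 fold change 2.08) and from 0.136 to 1.89 CPM in obese hosts (log2 fold change 3.75, edgeR adjusted p = 1.74e-06). Genes of T cells did not all move one way.

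The co-receptors differed from each other. Cd4 (chromosome 6, 124864692 to 124888221, minus strand), which marks helper T cells and in mice is also made by some dendritic cells and macrophages, was lower at day 21 than at day 14 in lean hosts. Cd8a (chromosome 6, 71373427 to 71379171, plus strand), the alpha chain of the co-receptor of cytotoxic T cells, passed no test.

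Cd4 read 3.24, 4.01, 2.16 and 2.17 CPM in lean hosts at day 14 and 1.1, 0.807, 0.545 and 0.839 CPM at day 21, with no overlap. Its log2 fold change was -1.82 ± 0.47 (edgeR adjusted p = 0.0071). In obese hosts it read 1.61, 2.55, 2.98, 3.2 and 1.81 CPM at day 14 and 0.589, 1.07, 0.93, 3.6 and 0.616 CPM at day 21. Obese day 21 replicate 4, at 3.6 CPM, exceeded every obese day 14 library, and the other 4 lay below all of them. With it the log2 fold change was -0.84 ± 0.41 (edgeR adjusted p = 0.0694), and without it -1.58 (edgeR adjusted p = 0.000154), and without obese day 14 replicate 1 it was -0.96 (edgeR adjusted p = 0.0461). With all 18 libraries kept, Cd4 in obese hosts was also called with limma-voom, with the replicate block and with library totals (adjusted p 0.00553 to 0.444 over the 12 alternatives other than leaving out a library).

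Obese day 21 replicate 4 had the highest summed level of 18 libraries for the macrophage and monocyte markers (803 CPM, against 149 to 803 CPM over its group with a median of 224), for the B cell markers (13.1 CPM) and for the T cell receptor and signaling list (38.4 CPM). Its sums were also the highest of 18 for the fibroblast markers (2874 CPM), the erythroid markers (15.1 CPM), the granule list (820 CPM) and the attractants (243 CPM). Lcp2, which myeloid cells also use, had the highest mean level of the T cell list (10.4 CPM over the 18 libraries). In obese day 21 replicate 4, Cd3e held 2 counts, Cd3g 8 and Nkg7 4. The part of any of these cell types in its Cd4 level was not tested.

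Cd8a read 0.353, 0.17, 0.643 and 0.189 CPM in lean and 0.371, 0.208, 0.463, 0.0548 and 0.361 CPM in obese hosts at day 14. At day 21 it read 0.315, 0.15, 0.182 and 0.468 CPM in lean and 0.46, 0.221, 0.0759, 0.405 and 0.278 CPM in obese hosts. All 4 groups covered nearly the same range. The log2 fold change of day 21 against day 14 was -0.29 (95% interval -1.55 to 0.96) in lean and -0.02 (-1.15 to 1.11) in obese hosts, so a change of about 1 in either direction was not detectable at this depth. Cd8b1, which encodes the beta chain paired with it, read 0.246 and 0.351 CPM at day 14 and 0.123 and 0.126 CPM at day 21 in lean and obese hosts and passed no test either.

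Il2rb, the beta chain of the receptors for interleukin-2 and interleukin-15 (chromosome 15, 78480553 to 78495066, minus strand), gave the clearest separation of the days. It read 3.61, 2.53, 2.66 and 3.74 CPM in lean hosts at day 14 and 0.788, 1.35, 0.969 and 1.29 CPM at day 21. In obese hosts it read 3.32, 3.94, 4.54, 2.61 and 3.27 CPM at day 14 and 2.19, 1.92, 0.835, 1.78 and 0.756 CPM at day 21. Within each kind of host every day 21 library lay below every day 14 library. The log2 fold change was -1.50 ± 0.32 in lean hosts (edgeR adjusted p = 0.00181) and -1.24 ± 0.28 in obese hosts (edgeR adjusted p = 0.000614).

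The other genes of interleukin-2 and interleukin-15 signaling did not follow Il2rb as a group. Of 12 genes, 11 were tested. In lean hosts 1 rose and 0 fell with time at the adjusted threshold of edgeR, against 21.4% and 9.5% of all tested genes. In obese hosts 3 rose and 4 fell, against 37.8% and 36.1% of all tested genes. Il2rg, the gamma chain shared by several cytokine receptors, averaged 89.7 CPM over the 18 libraries and read 99.8 CPM at day 14 and 76.3 CPM at day 21 in lean hosts (log2 fold change -0.39 ± 0.15, edgeR adjusted p = 0.0519), and 91.6 and 90.3 CPM in obese hosts. Jak3, the kinase bound to that chain, fell by 1.23 ± 0.23 in obese hosts (edgeR adjusted p = 8.56e-05), as did Stat5a, a transcription factor of the pathway, by 0.99 ± 0.17 (edgeR adjusted p = 3.78e-05). Jak1, the kinase bound to Il2rb, rose by 1.13 ± 0.32 in lean hosts (edgeR adjusted p = 0.0114) and by 1.75 ± 0.29 in obese hosts (edgeR adjusted p = 2.33e-05). At day 14, Jak3, Stat5a and Socs3 were higher and Jak1 and Il15 lower in obese than in lean hosts.

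Ncr1, which encodes the activating receptor NKp46 (chromosome 7, 4337724 to 4345164, plus strand), was at or near 0. Its counts were 4, 0, 6 and 9 in lean and 0, 0, 0, 16 and 4 in obese hosts at day 14, and 2, 2, 0 and 2 in lean and 0, 0, 2, 0 and 0 in obese hosts at day 21. Of its 18 libraries 9 held no read and 1 library, obese day 14 replicate 4, held the highest count of 16. It did not pass the filter on low counts and was not tested. Without the filter, its log2 fold change of day 21 against day 14 in obese hosts was -2.89 (edgeR adjusted p = 0.0768).

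Of 13 genes of NK cell receptors and regulators 8 were tested, and Klrb1c, Klre1, Klrc1, Klra8 and Xcl1 were too low to be tested. Klrk1, the receptor NKG2D, read 1.25 CPM in lean and 0.297 CPM in obese hosts at day 14 (log2 fold change -2.04 ± 0.66, edgeR adjusted p = 0.0341). Tyrobp and Fcer1g, signaling adaptors that myeloid cells use as well, averaged 13.9 and 37.3 CPM. Fcgr3, an antibody receptor found on NK cells and on myeloid cells, averaged 13.9 CPM and passed no test. These 3 were the list's most abundant genes. Tyrobp and Fcer1g fell with time in lean hosts (log2 fold changes -1.26 and -1.38). In obese hosts Tyrobp fell by 0.87 ± 0.39 (edgeR adjusted p = 0.0495), Tbx21, the transcription factor T-bet, fell by 1.95 ± 0.66 (edgeR adjusted p = 0.0122), and Fcer1g passed no test. At day 14, Klrk1 was the 1 of these 8 that was lower in obese than in lean hosts, and 0 were higher. Over all tested genes 12.8% were lower and 16.7% higher, so the list's share that was lower was near that of all genes.

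The granule genes differed in which comparisons were called, and no test set one gene against another. Nkg7 (chromosome 7, 43437073 to 43438246, plus strand), a granule membrane protein of NK and cytotoxic T cells, was lower at day 21 in obese hosts. Prf1, perforin (chromosome 10, 61297836 to 61304263, plus strand), was lower at day 21 in lean hosts, by a margin that most alternatives removed. Gzmb, granzyme B (chromosome 14, 56258856 to 56262260, minus strand), passed no test. It belongs to a family of similar genes that neighbour each other, and reads of such copies could have been split between them by the counting.

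Nkg7 read 0.369, 0.278, 0.52 and 0.208 CPM in lean and 0.161, 0.37, 1.76, 0.511 and 0.831 CPM in obese hosts at day 14. At day 21 it read 0.126, 0.3, 0.0403 and 0.586 CPM in lean and 0.147, 0.111, 0.0379, 0.09 and 0.119 CPM in obese hosts. All 5 obese day 21 libraries lay below all 5 obese day 14 libraries, whereas lean hosts overlapped. The obese day 21 values are counts of 8, 6, 2, 4 and 6, and the lowest count in obese hosts at day 14 was 10. Nkg7 counts were even in 17 of the 18 libraries, so the late levels rest on few independent reads. The log2 fold change of day 21 against day 14 was -2.80 ± 0.65 in obese hosts (edgeR adjusted p = 0.000688) and -0.36 ± 0.67 in lean hosts (edgeR adjusted p = 0.694).

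Gzmb read 1.24, 1.42, 3.83 and 1.06 CPM in lean and 1.03, 0.44, 1.22, 1.43 and 1.23 CPM in obese hosts at day 14. At day 21 it read 0.883, 1.73, 0.646 and 1.25 CPM in lean and 1.03, 1.22, 0.683, 1.4 and 0.875 CPM in obese hosts. Lean day 14 replicate 3 stood alone at 250 counts, and the other 17 libraries held 19 to 92. The log2 fold change of obese against lean hosts at day 14 was -0.82 (95% interval -1.64 to 0.00, edgeR adjusted p = 0.11).

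Prf1 read 1.21, 0.756, 1.32 and 0.623 CPM in lean and 0.468, 0.787, 1.1, 0.84 and 0.65 CPM in obese hosts at day 14. At day 21 it read 0.536, 0.488, 0.202 and 0.703 CPM in lean and 0.533, 0.572, 0.474, 0.877 and 0.477 CPM in obese hosts. The lean groups overlapped, since lean day 21 replicate 5 lay above lean day 14 replicate 4. The log2 fold change of day 21 against day 14 was -1.02 ± 0.38 in lean hosts (edgeR adjusted p = 0.0464) and -0.38 ± 0.34 in obese hosts (edgeR adjusted p = 0.305). The call in lean hosts was lost without any one of 10 of the 18 libraries (edgeR adjusted p 0.0318 to 0.135 over all 18) and under 7 other alternatives, including the correction for GC content and length (-0.69, edgeR adjusted p = 0.172).

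Of 20 further genes of granules and death ligands, 18 were tested. In lean hosts 1 rose and 2 fell with time, where 21.4% of all tested genes rose and 9.5% fell. In obese hosts 7 rose and 4 fell, where 37.8% of all tested genes rose and 36.1% fell. The list's share that rose in obese hosts was near that of all genes, and its share that fell was below it. The 4 that fell in obese hosts were Gzma and Gzmm, granzymes, Ctsw, a protease of cytotoxic lymphocytes, and Unc13d, which primes granules for release. Ctsw read 1.1 CPM in lean and 2.27 CPM in obese hosts at day 14 and 0.902 and 0.955 CPM at day 21, and in obese hosts it fell by 1.25 ± 0.24 (edgeR adjusted p = 0.000109). The 7 that rose were Serpinb6b (log2 fold change 3.24 ± 0.39, edgeR adjusted p = 1.02e-06), Srgn, Fas, Ctsc, Tnfsf10, Serpinb9 and Stx11. Serpinb9, an inhibitor of granzyme B, rose from 12.9 to 40.4 CPM, and Fas, the death receptor bound by Fas ligand, from 3.84 to 15.7 CPM. These genes are made by many cell types and are not restricted to lymphocytes. Gzma, Gzmm, Unc13d, Tnfsf10 and Srgn were named after their values were seen.

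Set against time, then, 4 of the 8 tested genes fell in lean hosts (Cd3g, Cd4, Il2rb and Prf1) and 4 fell in obese hosts (Cd3e, Cd3g, Il2rb and Nkg7). Over all tested genes 9.5% fell, 21.4% rose and 30.9% changed in either direction in lean hosts, whereas 36.1% fell, 37.8% rose and 73.9% changed in obese hosts, so the same count of 4 stands against a much higher background in obese hosts. With the incomplete library included, 0 of the 8 were called in lean hosts and 2, Cd3e and Nkg7, in obese hosts, whereas counts halved and rounded up gave the same 4 genes in each. All 8 fitted values were below 0 in both hosts, although those of Cd8a and Gzmb in obese hosts were above 0 with RLE scaling, with a median log2 fold change of -0.88 in lean hosts and -1.04 in obese hosts, against 0.04 and under 0.01 in size over all genes. Groups did not overlap for Cd3g, Cd4 and Il2rb in lean hosts (background 13.2% of genes lower and 19.9% higher in this way) and for Il2rb and Nkg7 in obese hosts (background 28.9% lower and 31.3% higher). The comparisons in lean and in obese hosts share no library, but they share the filter, the scaling and the estimate of spread of 1 fit. The call of Prf1 in lean hosts was lost without some single obese libraries. At day 14 the 9 genes summed to 10.4 ± 1.51 CPM in the 4 lean and 10.1 ± 2.9 CPM in the 5 obese libraries (mean ± SD). At day 21 they summed to 4.41 ± 1.3 CPM in the 4 lean and 5.11 ± 2.11 CPM in the 5 obese libraries.

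**Figure D3:**
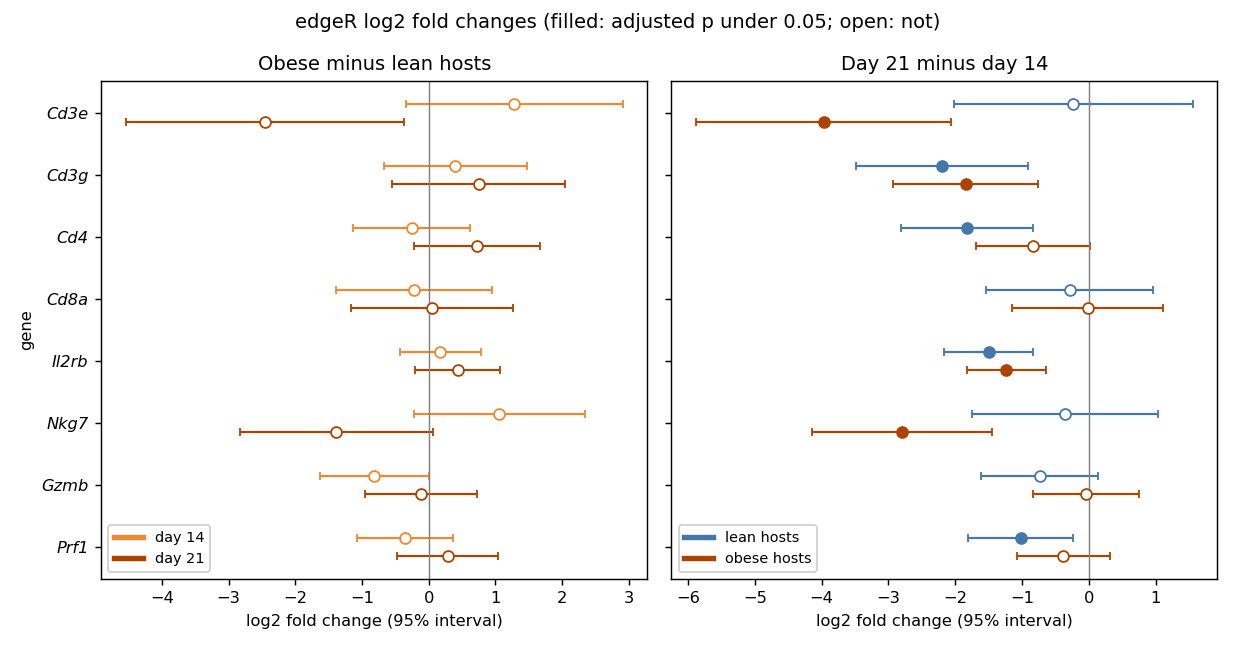
Fitted log2 fold changes (horizontal axis) with 95% intervals for the 8 tested genes, for obese against lean hosts at each day (left) and day 21 against day 14 in each kind of host (right), with filled points for an edgeR adjusted p under 0.05. No point is filled on the left, and 4 are filled in each kind of host on the right, all below 0.

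Markers of other cells were read in the same libraries. All 12 pan-leukocyte markers were tested. In lean hosts 5 fell and 0 rose at the adjusted threshold of edgeR, and in obese hosts 5 fell and 3 rose. Over all tested genes 9.5% fell and 21.4% rose in lean hosts, and 36.1% fell and 37.8% rose in obese hosts. The summed level of the 12 markers was 164 to 224 CPM in lean and 141 to 281 CPM in obese hosts at day 14, and 112 to 139.8 CPM and 84.3 to 254 CPM at day 21. Ptprc, the common leukocyte antigen CD45, went the other way and rose by 3.42 ± 0.50 in obese hosts (edgeR adjusted p = 7.66e-06). Of 16 macrophage and monocyte markers 2 fell and 1 rose in lean hosts, and 1 fell and 3 rose in obese hosts, with a group median of their summed level of 592 and 326 CPM in lean hosts and 299 and 224 CPM in obese hosts at day 14 and day 21. Of 9 B cell markers in the table, Ms4a1 was at 0 in every library of 3 groups, and the summed level was 5.29 to 13.1 CPM over all groups. The part of these cells, and of the mitochondrial share that was higher in every day 21 library, in the changes of the T and NK cell genes was not tested.

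**Figure D4:**
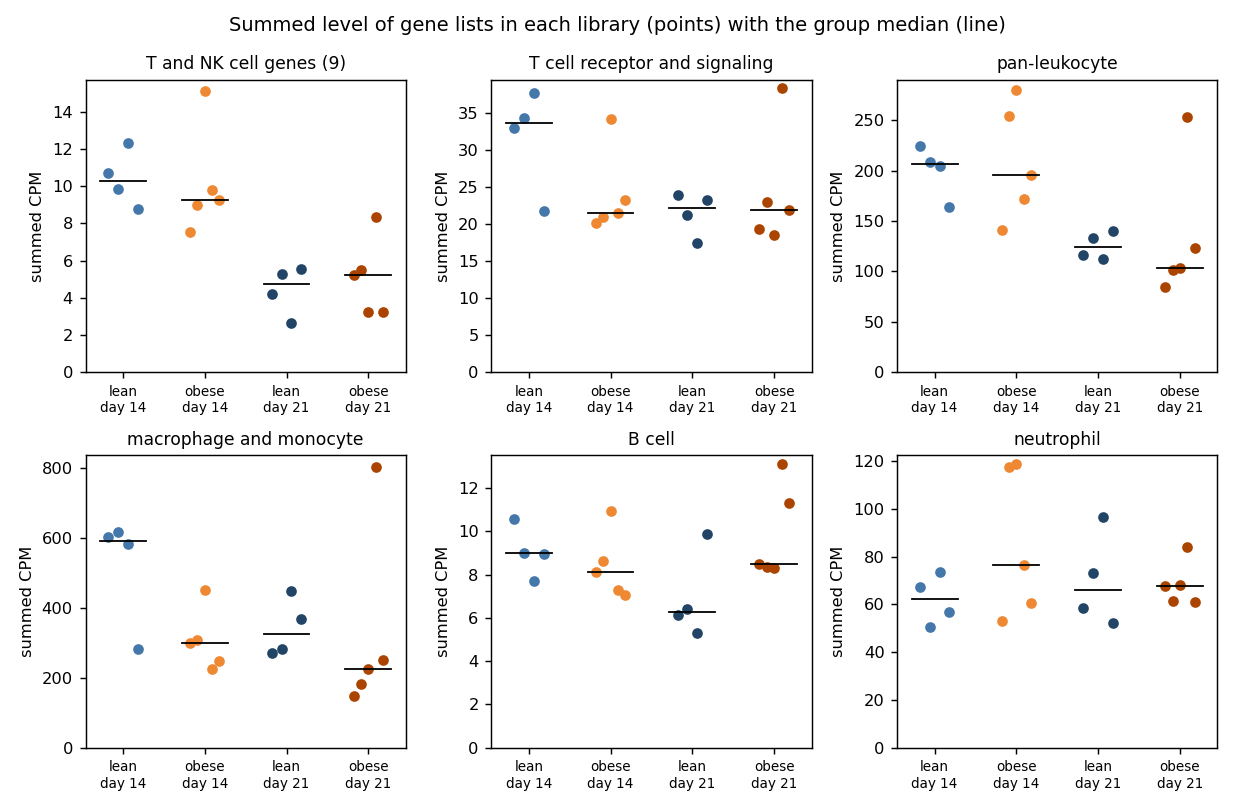
Summed level in CPM (vertical axis, from 0) of the 9 T and NK cell genes and of 5 gene lists in every library (points), with the group median (line). The summed 9 genes lie lower at day 21 in lean hosts without overlap, and obese day 21 replicate 4, at 8.37 CPM for the 9 genes and 803 CPM for the macrophage and monocyte list, is the highest of its group in all panels shown.

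Host diet gave no call among the 9 genes. At day 14, 0 of the 8 tested genes passed the adjusted threshold of edgeR, and 0 had an unadjusted p under 0.05, while 29.5% of all tested genes were called (16.7% higher and 12.8% lower in obese hosts). At day 21, 0 of 8 passed, with 0.00612% of all genes called, which is 1 gene. At an unadjusted p under 0.05 there was 1 of the 8, Cd3e (log2 fold change -2.45, 95% interval -4.54 to -0.37, edgeR adjusted p = 0.989). DESeq2 and limma-voom likewise called 0 of them at both days, although DESeq2 gave no adjusted p for Cd3e and Cd8a at day 14. Lean and obese libraries overlapped for all 9 genes at both days, where 4.9% of all tested genes were higher and 3.14% lower without overlap in obese hosts at day 14, and 0.636% and 1.33% at day 21.

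The intervals of the diet difference show what these libraries could have missed. At day 14 they were narrowest for Il2rb, at 0.17 (95% interval -0.44 to 0.78), and widest for Cd3e, at 1.28 (-0.35 to 2.91). Nkg7 read 1.05 (-0.23 to 2.34), Cd3g 0.39 (-0.68 to 1.46), Cd4 -0.26 (-1.14 to 0.62), Cd8a -0.22 (-1.40 to 0.95) and Prf1 -0.35 (-1.07 to 0.37). At day 21 the values were 0.75 (-0.55 to 2.05) for Cd3g, 0.72 (-0.22 to 1.67) for Cd4, 0.44 (-0.20 to 1.07) for Il2rb, -1.39 (-2.84 to 0.07) for Nkg7, -0.12 (-0.96 to 0.72) for Gzmb and 0.28 (-0.48 to 1.04) for Prf1. A p that misses the threshold does not show that lean and obese hosts were alike.

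Obese day 14 replicate 3 was the library in which several of the genes were high together. It held the highest Cd3e (1.37 CPM), Cd3g (1.71 CPM), Nkg7 (1.76 CPM) and Il2rb (4.54 CPM) of all 18 libraries, and the highest sum of the 9 genes (15.1 CPM). Its pan-leukocyte sum of 281 CPM and its NK cell receptor sum of 127 CPM were also the highest of 18. The NK cell receptor sum is led by Tyrobp, Fcer1g and Fcgr3, which myeloid cells also make, and this library held 0 counts of Ncr1. Its sums of neutrophil markers (119 CPM) and endothelial markers (27.6 CPM) were the highest of 18 as well. Without this library, the Cd3g difference between obese and lean hosts at day 14 changed sign, from 0.39 to -0.21.

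Whether the change with time differed between lean and obese hosts was tested as an interaction. None of the 16352 genes passed in edgeR after adjustment, whereas 5451 genes and 2 of the 8 had an unadjusted p under 0.05. These were Cd3e, at -3.73 (95% interval -6.38 to -1.08, edgeR adjusted p = 0.0988), and Nkg7, at -2.44 (95% interval -4.38 to -0.50, edgeR adjusted p = 0.106). DESeq2 called 1681 genes and 0 of the 8, whereas limma-voom called 5119 genes and 2 of the 8, Cd3e and Nkg7. DESeq2 gave no adjusted p for Cd3e, Cd3g, Cd8a, Nkg7 and Prf1, so it could not have called them. In DESeq2, too, 2 of the 8 had an unadjusted p under 0.05. In edgeR without obese day 14 replicate 1 both were called (adjusted p = 0.0196 and 0.026), with 5656 genes in all. For the other 6 genes the fitted values lay above 0, from 0.26 for Il2rb to 0.98 for Cd4. None of them was called by edgeR or limma-voom, nor by DESeq2 where it gave an adjusted p.

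Genes for attractants and ligands of T and NK cells were measured as well, whichever cells in the sorted samples made them. Of 9 attractants of T and NK cells, 7 were tested and Ccl19 and Ccl21a were at 0 in all libraries. At day 14, 3 of the 7 were lower in obese than in lean hosts and 0 were higher, against 12.8% and 16.7% of all tested genes. The macrophage and monocyte markers lay the same way, with 5 of 16 lower, 0 higher and a median log2 fold change of -0.84, against -0.88 for the attractants, and the part of these cells was not tested. Cxcl9, a ligand of CXCR3, read 26.1 CPM in lean and 6.12 CPM in obese hosts (log2 fold change -2.09 ± 0.71, edgeR adjusted p = 0.0384). Cxcl10 and Cxcl11, ligands of the same receptor, differed by -0.88 ± 0.29 and -1.45 ± 0.49. With time in obese hosts, 3 of the 7 rose, Cxcl9 (log2 fold change 2.54), Cxcl10 (1.16) and Ccl3, and Ccl5 fell. There 37.8% of all tested genes rose, near the list's share, and 36.1% fell. In lean hosts Ccl4 fell (-1.42 ± 0.46, edgeR adjusted p = 0.0258) and 0 of the 7 rose, where 9.5% of all tested genes fell and 21.4% rose.

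Of 10 genes for ligands of NK and T cell receptors on target cells, 9 were tested. Nectin2, a ligand of DNAM-1, was higher in obese hosts at day 14 (76.3 against 43.7 CPM) and fell with time in lean (-0.56 ± 0.21, edgeR adjusted p = 0.0492) and obese hosts (-1.37 ± 0.19, edgeR adjusted p = 4.46e-06). Pvr, the most abundant gene of the list at a mean of 123 CPM, went the other way and rose in obese hosts (1.04 ± 0.21, edgeR adjusted p = 0.000156). Of the 9 tested, 3 rose and 1 fell with time in obese hosts, against 37.8% and 36.1% of all tested genes. Ulbp1, a ligand of NKG2D, rose with time in lean (0.78 ± 0.29, edgeR adjusted p = 0.0456) and obese hosts (1.48 ± 0.26, edgeR adjusted p = 4.5e-05). Raet1d, another ligand of NKG2D, averaged 81.9 CPM and passed no test. Cd86, a ligand of CD28 on antigen-presenting cells, read 3.11 CPM in lean and 0.735 CPM in obese hosts at day 14 (log2 fold change -2.08 ± 0.48, edgeR adjusted p = 0.0305).

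Which genes of the whole table varied most like these genes was described by Pearson's r of log2 CPM over the 18 libraries, for the 4 genes whose mean reached 0.5 CPM. The libraries share their day and depth, so r is given without a p. Cd4 was most like Cd300a (r = 0.915), Fgr (0.909) and Pilrb1 (0.904). Within the 9 libraries of day 14 its r with Cd300a was 0.811, and within the 9 of day 21 it was 0.845. Il2rb was most like H2-T22 (0.932), Adipor1 (0.931) and Ormdl2 (0.922), genes whose mean levels were 268, 168 and 10.6 CPM.

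Gzmb was most like Klrb1b (0.79), Klrk1 (0.691) and Slc28a2 (0.688), all at lower r than the closest genes of the others. Prf1 was most like Lst1 (0.896) and Plac8 (0.892). Among the 8 tested genes themselves, Cd3g and Il2rb had the highest r over 18 libraries (0.874), with 0.338 within day 14 and 0.787 within day 21. Cd3e and Nkg7 followed at 0.85, with 0.915 within day 14 and 0.618 within day 21. Cd4 and Cd8a had an r of 0.00901 over 18 libraries, -0.436 within day 14 and 0.207 within day 21. At counts this low a weak r carries no information on whether the genes come from the same cells.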

How the data were processed

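RNA of sorted cancer cells was measured in 19 libraries. The authors deposited whole-number counts per gene, not normalized. TopHat, DESeq and mm10 are named in the submitters' processing notes without role or version, and the counting tool, annotation release and strand setting are not given there. Identifiers of Ensembl, coordinates and an exon length stand beside each gene, per the file headers. The deposited columns of day 21 were read as counts too, although their names could be taken for end positions. Symbols came from GENCODE M21, which matched 37607 of 39017 identifiers.

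Counts of 18 libraries were analysed with edgeR 4.0.16 in R 4.3.3. The filter filterByExpr kept 16352 genes, libraries were scaled by TMM, and 1 mean per group was fitted. A set of 5 contrasts was tested by the quasi-likelihood test with Benjamini-Hochberg adjustment over all tested genes at 0.05. CPM and log2 CPM (prior count 2) were derived from the deposited counts, and each standard error from its log2 fold change and F value. Intervals of 95% use the fit's degrees of freedom. Lean day 21 replicate 4 was left out of the 19 libraries because its counts stop on chromosome 5. Within groups, 32 pairs of libraries differed by a chi-square of at least 35.7 per degree of freedom, so none was deposited 2 times within its group. Pairs across groups were not compared in this way. The fit was tested on simulated data.

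The 9 genes and all lists were chosen with earlier results of these data known. All 9 are described. Of each list, up to 4 genes with the smallest p over the contrasts and up to 3 with the highest mean CPM are named by rule, as are the 3 genes with the highest r for each of the 9 with a mean of at least 0.5 CPM. One gene that this rule takes is not reported here. Other named list genes were added after their values were seen. Alternatives were RLE scaling, no filter on low counts or one of 1 CPM in 4 libraries, limma-voom 3.58.1 with quality weights, DESeq2 1.42.0, all 19 libraries, a fit of only the groups compared, a block for the replicate number, a correction for GC content and length (mgcv 1.9.3, GC known for 98.6% of tested genes), and each library left out. Library totals without scaling, and counts halved and rounded up, were chosen after seeing the data.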

Additional observations from a re-analysis of the deposited data

Results flagged for a closer look

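In 7 of the 36 combinations of gene and group, 1 library stood apart from the rest of its group by Dixon's criterion. Chance meets it in about 1 of 20 for normally distributed values, which levels from counts this low are not. A single library above 0 in a group of 0 counts is always flagged, as Ncr1 was in obese hosts at day 21. Whether the 7 are more than chance would give was not tested. Cd3g read 1.71 CPM in obese day 14 replicate 3, where the other 4 libraries read 0.278 to 0.686 CPM, and 0.234 CPM in lean day 21 replicate 5, where the other 3 read 0.063 to 0.0807 CPM. Cd4 read 3.6 CPM in obese day 21 replicate 4, against 0.589 to 1.07 CPM in the others, and Prf1 read 0.877 CPM in the same library, against 0.474 to 0.572 CPM. That library was also the highest of 18 for the macrophage and monocyte markers, at 803 CPM. Gzmb read 3.83 CPM in lean day 14 replicate 3, against 1.06 to 1.42 CPM. Ncr1 read 0.292 CPM in obese day 14 replicate 4 and 0.0379 CPM in obese day 21 replicate 3, which are counts of 16 and 2 in groups of otherwise 0 to 4 and 0 counts.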

How the results depend on the processing

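For the 8 tested genes in 5 contrasts, 682 of 720 values with 1 library left out and 395 of 435 under the other alternatives kept their direction and their side of the threshold. Of the rest, 10 and 12 lost a call, 4 and 5 gained one, and 24 and 23 changed sign, the last among values that had passed no test. Cd3g, Cd4 and Il2rb in lean hosts, and Cd3e, Cd3g, Il2rb and Nkg7 in obese hosts, kept their calls in time without each single library and with the GC and length correction. These calls were lost in the fit of all 19 libraries, which left 0 in lean hosts (530 genes called) and 2, Cd3e and Nkg7, in obese hosts (4213 genes). In the compared groups alone 2 of 6 tested genes fell in obese hosts, and Cd3e and Nkg7 were not among the 6. A filter of 1 CPM left 3 of the genes to test, of which 2 were called in lean and 1 in obese hosts.

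Replicate numbers did not pair the samples, since only 6 of 24 same-numbered pairs had a correlation of deviations over 0.1 (lowest -0.403, highest 0.551). With the replicate block, Cd4 in obese hosts was called (-1.06, edgeR adjusted p = 0.0198), Prf1 in lean hosts was not (-1.01, edgeR adjusted p = 0.108), Cd8a with time in obese hosts read 0.14, and 0 genes were called for diet at day 21. With the block and the GC and length correction, 1 gene was called for diet at day 14, 0 at day 21 and 2980 with time in lean hosts. Cd8a and Il2rb for diet at day 14 read 0.11 and -0.0077, Cd3g in the interaction -0.18 and Prf1 with time in obese hosts 0.27.

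Genes called for diet at day 14 numbered 4825, but 8458 with limma-voom, 1960 with the GC correction, 499 with library totals, and 0 with 19 libraries or the compared groups alone. At day 21, 1 was called, 13 with DESeq2, and 0 with limma-voom, 19 libraries, the compared groups alone or library totals. In the interaction 0 were called, 1681 with DESeq2, 5119 with limma-voom (2 of the 8 genes) and 1 with library totals. Library totals moved the median of all genes by over 0.1 in 4 contrasts (-0.17 and 0.10 for diet at days 14 and 21, 0.29 in the interaction, -0.32 with time in lean hosts), and 1.4% of the genes then called for diet at day 14 were higher in obese hosts, against 56.5%, and 33.2% of those called with time in lean hosts rose, against 69.2%.

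Signs changed as follows, and the cause was not tested. For diet at day 14, Cd8a read 0.23 and Il2rb -0.067 with the GC correction, and Il2rb -0.012 with library totals. At day 21, Cd8a read -0.71 with limma-voom and Gzmb 0.24 with 19 libraries. In the interaction, Cd8a read -0.54 with limma-voom and -0.16 with the GC correction, and Cd3g -0.47 with the latter. With time, Cd8a read 0.21 in lean hosts with limma-voom. In obese hosts Cd8a read 0.0545, 0.055, 0.0557 and 0.0822, and Gzmb 0.0202, 0.0131, 0.0212 and 0.0401, with RLE, no filter, DESeq2 and 19 libraries, and Prf1 read 0.27 with the GC correction.

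With 1 library left out, genes called ranged from 0 to 7946 for diet at day 14 (0 without lean replicates 2 or 3 or obese replicates 2 or 3), 0 to 1 at day 21, 0 to 5656 in the interaction, 3251 to 6388 with time in lean hosts and 11563 to 12390 in obese hosts. Of the 8 genes, 0 to 2 were called in the interaction, 3 to 4 and 4 to 5 with time in lean and obese hosts, and 0 to 0 for diet. Values that changed sign ranged from -0.76 to 0.19 (Cd3e), -0.69 to 0.18 (Cd8a) and -1.11 to 0.0045 (Nkg7) with time in lean hosts, and -0.29 to 0.23 (Cd8a) and -0.24 to 0.079 (Gzmb) in obese hosts. For diet at day 14 they were -0.21 to 0.56 (Cd3g) and -0.48 to 0.26 (Cd8a), at day 21 -0.0089 to 0.92 (Cd4), -0.19 to 0.45 (Cd8a) and -0.32 to 0.18 (Gzmb), and in the interaction -0.20 to 0.67 (Cd8a).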
